A study of Homo sapiens with 9 samples.

Results

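The comparison described here set HepG2 cells grown with 20 µM eliglustat against untreated HepG2 cells, with 3 RNA-seq libraries a side. These are 6 of the 9 libraries of the series, taken by their labels. The other 3 libraries came from cells given 30 µM eliglustat and entered only where genes changed at the lower dose alone were sought. HepG2 is a human liver tumour line that keeps many hepatocyte functions. Untreated cells served as controls, both doses were applied for 72 h, and the labels name no engineered allele in any group. Whether each library stands for its own culture dish is not stated, and p-values therefore reflect only how far these libraries varied, which could be technical variation. Nor do the labels say whether a further incubation mentioned in the series text applies to the sequenced cells.

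Eliglustat is an oral drug for Gaucher disease that blocks glucosylceramide synthase, the enzyme encoded by UGCG. That enzyme adds glucose to ceramide and so makes the first glycosphingolipid, from which gangliosides and other complex glycolipids of the cell surface are built. Blocking it lowers glycosphingolipids and can let ceramide build up. In liver cells these lipids sit beside the pathways that make fatty acids, export lipoproteins and sense nutrients.

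Transcript levels are given as CPM (counts relative to library size, each library scaled by the trimmed mean of M values), with means ± SD of 3 libraries. Gene positions are from GENCODE 29 (GRCh38). CPM is not divided by gene length, so CPM values are compared between libraries for 1 gene and not between genes. The 6 libraries held 21103757 to 26634229 counts in genes. Cell markers matched the label: the summed level of 12 hepatocyte markers was 32981 to 34004 CPM in controls and 36217 to 36669 CPM at 20 µM. Of 6 fibroblast and stellate markers, COL1A2 and DCN were at 0 in every library and the list summed to at most 1.503 CPM. The leukocyte marker PTPRC was at 0, and LYZ, a secreted lysozyme, made up nearly all of that list's 438 to 496 CPM. Endothelial markers summed to 4.49 to 6.34 CPM, and biliary markers, which liver tumour lines also express, to 563 to 587 CPM in controls and 609.9 to 620.4 CPM at 20 µM. The first principal component of the 6 libraries (38.2% of the variance) separated the groups. The second (24.5%) set control library 1 and 20 µM library 3 apart from the others, and 30 µM library 3 deviated with them (correlations of deviations 0.33 to 0.35). Reads without a unique alignment made up 12.4 to 12.8% in controls and 13.3 to 15.5% at 20 µM, and the part of this gap in the results was not tested.

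UGCG (ENSG00000148154, chr9:111896766-111935369, plus strand), the transcript of the drug's target, measured 22, 24.3 and 24.8 CPM in the control libraries and 41.5, 41.6 and 46.6 CPM at 20 µM. All 3 treated libraries lay above all controls. The log2 change was 0.87 (SE 0.06, adjusted p = 1.70e-13) by edgeR's quasi-likelihood test with Benjamini-Hochberg adjustment over all genes tested. Every adjusted p-value below comes from that fit, and "rose" or "fell" means adjusted p under 0.05.

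Of 62703 gene identifiers, 17623 were expressed well enough to test, and they held 99.9% of the counts. At 20 µM, 6020 genes changed (34.2% of those tested): 3038 rose (17.2%) and 2982 fell (16.9%). Without adjustment, 7376 genes had p under 0.05. In 7841 genes (44.5%) the 3 treated libraries did not overlap the 3 controls. Among 12460 protein-coding genes, 44.2% changed, 21.8% higher and 22.4% lower, and these shares are the background for the gene families below. Families were drawn up by symbol pattern or by list, so some members share the name and not the function. Among them are RAB3IP and RAB5IF with the Rab GTPases, EIF2AK2 and EIF2AK3 with initiation factors and USP6NL with ubiquitin-specific proteases. Others are IL4R and IL21R with interleukins, ITGB3BP with integrins and ATP1B1 with P-type ATPases. The family counts include them. The response was broad and shallow. The median log2 change was 0.33 among genes that rose and -0.29 among those that fell, and 5037 of the changed genes (83.7%) moved by less than 1.5-fold. A rise of at least 2-fold was seen in 245 genes (1.39%) and a fall of that size in 64 (0.363%). Among 10113 protein-coding genes with a mean of at least 5 CPM, 2423 rose and 2713 fell, yet only 51 rose and 6 fell by 2-fold or more. The share of genes called depended on level. Of genes at 100 CPM or more, 27.5% rose and 35.2% fell, against 3.86% and 1.72% of those under 1 CPM, where few counts limit the test. Long non-coding genes rose more often than they fell, with 221 higher and 98 lower of 2583 tested.

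**Figure D1:**
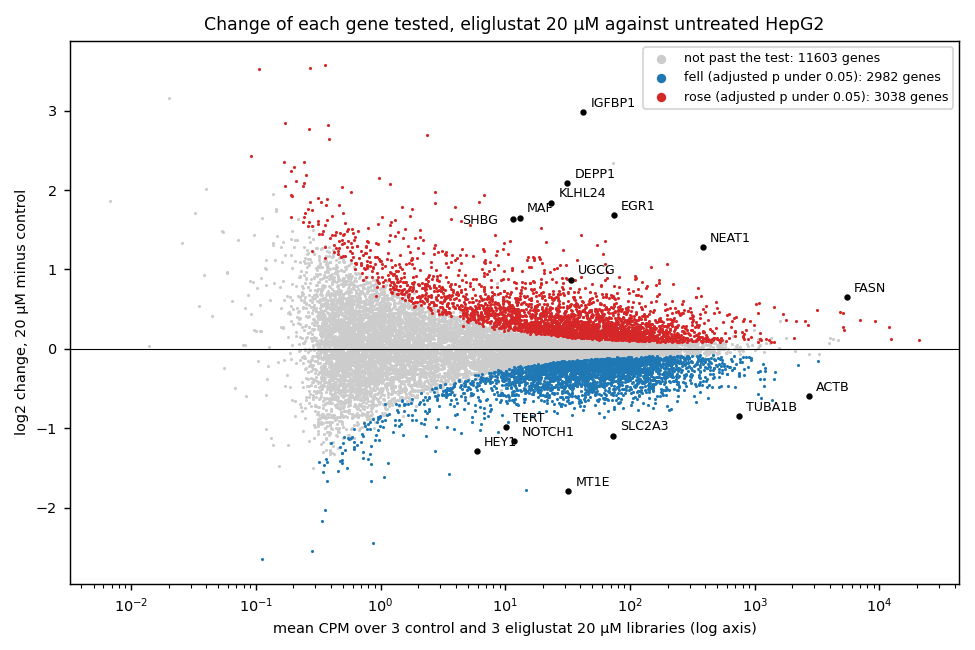
Each point is 1 of the 17623 genes tested, placed by its mean CPM over the 6 libraries (log axis) and its log2 change at 20 µM against control. Red genes rose (3038), blue genes fell (2982) and grey genes did not pass the test; the named genes in black span IGFBP1 at 2.98 to MT1E at -1.79, while most coloured points lie close to 0.

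Among protein-coding genes at 5 CPM or more, the steepest rise was in IGFBP1 (ENSG00000146678, chr7:45888357-45893668, plus strand), a secreted liver protein that binds insulin-like growth factors and whose transcript is normally held down by insulin. It measured 6.74, 7.35 and 13.9 CPM in the control libraries and 72.1, 74.7 and 77.4 CPM at 20 µM. Control library 3 was the highest control and was still far below every treated library. The log2 change was 2.98 (SE 0.22, adjusted p = 5.73e-05). IGFBP1 was the only one of 5 IGF-binding protein genes tested that passed.

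Several of the next genes are known as nutrient-stress or autophagy transcripts. DEPP1, a stress-induced regulator of autophagy, went from 12 ± 0.592 to 50.9 ± 2.63 CPM (log2 change 2.08, SE 0.05, adjusted p = 8.89e-24). GABARAPL1, which encodes an autophagosome coat protein, went from 6.12 ± 0.258 to 15.7 ± 0.823 CPM (log2 change 1.36, SE 0.08). TP53INP1, a stress protein that binds such coat proteins, went from 35.3 ± 0.951 to 90.3 ± 0.316 CPM (log2 change 1.35, SE 0.05). In each of these genes the treated libraries stood clear of the controls. That separation was a condition for choosing the steepest changes and the largest gains and losses in CPM, here and below, so it is no added evidence. KLHL24, a ubiquitin ligase adaptor, measured 9.83, 10.6 and 10.3 CPM in the control libraries and 37, 36.8 and 36.3 CPM at 20 µM, a log2 change of 1.84 with libraries of each group lying close together. YPEL3, a growth-suppressing gene, and TCP11L2 rose by 1.43 and 1.84 log2 units.

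Immediate-early genes, which encode transcription factors that growth and stress signals switch on within minutes, were also among the 15 steepest rises. EGR1, a zinc-finger factor, measured 37.1, 35.6 and 32.7 CPM in the control libraries and 112, 114 and 112 CPM at 20 µM, with no overlap and a log2 change of 1.68 (SE 0.05, adjusted p = 1.12e-19). Of the AP-1 subunits, FOS rose by 1.94, FOSB by 1.56, JUN by 1.44 and JUNB by 1.34 log2 units. JUND, FOSL2 and FOSL1, looked at after these values were seen, had log2 changes of 1.07, 0.45 and 0.03, and FOSL1 did not pass the test (adjusted p = 0.80). JUN went from 21.9 ± 0.39 to 59.5 ± 6.18 CPM. BHLHE40, a repressor of the circadian clock, rose by 1.52. The promoter of EGR1 is shown because immediate-early genes are textbook targets of serum response factor, which binds the CArG box. It is the RefSeq window from 250 bases before to 50 after the start, GRCh38.p14, plus strand, chr5:138465229-138465528, with the 2 CArG boxes in capitals.
EGR1: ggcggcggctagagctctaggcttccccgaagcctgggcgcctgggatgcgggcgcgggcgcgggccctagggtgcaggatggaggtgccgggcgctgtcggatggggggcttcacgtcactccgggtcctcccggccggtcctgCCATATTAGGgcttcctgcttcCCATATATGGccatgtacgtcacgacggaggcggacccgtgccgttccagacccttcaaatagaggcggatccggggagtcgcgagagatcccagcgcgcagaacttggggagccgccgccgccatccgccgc
A CArG box on either strand was found in 1.01% of the 10117 windows of protein-coding genes tested. The match describes the sequence only, and binding was not measured.

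MAF and SHBG also ranked among the steepest. MAF, a basic leucine zipper factor, measured 6.49, 5.72 and 6.72 CPM in the control libraries and 18.3, 19.5 and 22 CPM at 20 µM, and its treated libraries lay above all controls (log2 change 1.65, SE 0.10, adjusted p = 6.63e-15). At 30 µM it averaged 9.3 CPM, below the 20 µM level (30 against 20 µM, adjusted p = 7.44e-12). SHBG, the sex hormone carrier that hepatocytes secrete, went from 5.58 ± 0.861 to 17.3 ± 0.474 CPM and rose by 1.64 log2 units.

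**Figure D2:**
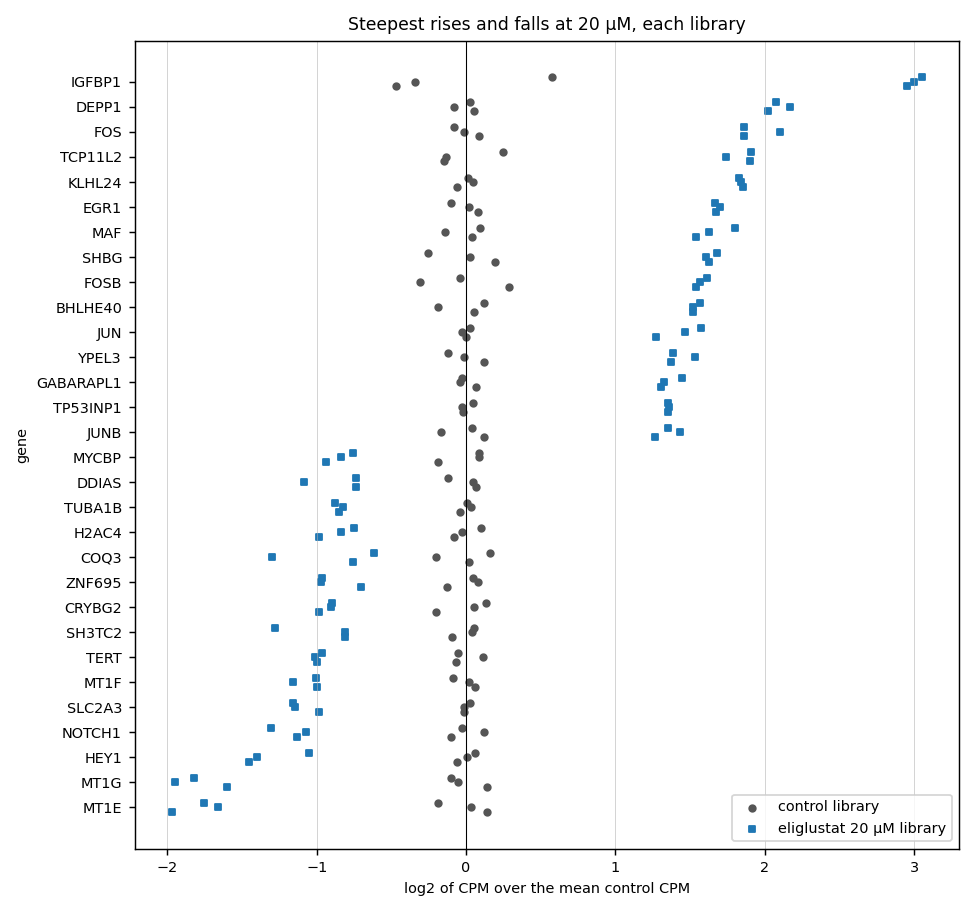
For the 15 steepest rises and 15 steepest falls, each library's CPM is drawn as log2 of its ratio to the control mean, circles for controls and squares for 20 µM. The groups do not overlap in any row, since that was a condition for the choice; IGFBP1 and COQ3 show the wide spreads among libraries of 1 group.

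Metallothioneins, small cysteine-rich proteins that bind zinc and copper, had the lowest median of the 72 gene families examined. Of 7 tested, 6 fell and none rose, with a median log2 change of -1.29 against 0.0087 over all genes. MT1E (ENSG00000169715, chr16:56625475-56627112, plus strand) measured 54.8, 50.9 and 43.6 CPM in the control libraries and 12.7, 15.7 and 14.8 CPM at 20 µM, and every treated library was far below the lowest control (log2 change -1.79, SE 0.08, adjusted p = 4.08e-14). MT1G fell by 1.78, MT1X by 1.29 and MT1F by 1.05 log2 units, all without overlap between groups. The summed level of the family was 39.2 to 42.1% of the control mean at 20 µM and 86.2 to 97.5% at 30 µM. The sum at 30 µM was carried by MT2A, which averaged 43.9, 24.6 and 90.3 CPM across control, 20 µM and 30 µM. The family's median log2 change at 30 µM was -1.56, below that at 20 µM, and MT1G averaged 22.7, 6.62 and 3.21. These genes are close copies of each other, so how reads were shared between them is uncertain. The promoter of MT1X is shown because metallothionein genes are known targets of the zinc-sensing factor MTF1 through metal response elements (GRCh38.p14, plus strand, chr16:56682220-56682519, elements in capitals).
MT1X: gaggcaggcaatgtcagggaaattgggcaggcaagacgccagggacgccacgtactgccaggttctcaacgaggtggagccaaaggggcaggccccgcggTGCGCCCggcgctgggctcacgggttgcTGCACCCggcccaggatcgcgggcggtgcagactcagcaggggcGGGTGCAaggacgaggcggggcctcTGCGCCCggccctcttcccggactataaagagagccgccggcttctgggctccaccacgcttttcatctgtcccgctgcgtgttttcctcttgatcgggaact
The element was searched as TGCACNC or TGCGCNC on both strands and occurred 4 times here. It was also present in 38.7% of all windows, so a single match is common. No window was given for MT1E, MT1G or MT1F. Zinc transporters moved less: of 19 tested, 5 rose, among them the importers SLC39A10 (log2 change 0.64), SLC39A5 (0.53) and SLC39A4 (0.50).

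In the Notch pathway, 1 receptor and 1 target fell. NOTCH1 fell from 16.3 ± 1.3 to 7.27 ± 0.596 CPM (log2 change -1.16, SE 0.11, adjusted p = 3.64e-10). HEY1, a transcriptional repressor that Notch induces, measured 8.0, 8.38 and 8.7 CPM in the control libraries and 3.06, 3.17 and 4.04 CPM at 20 µM, below every control and lower by 1.29 log2 units. The pathway list had 5 of 18 members higher (3 without the 3 libraries that deviated together) and 3 lower. These are 27.8% and 16.7%, against 21.8% and 22.4% of protein-coding genes, so the list as a whole did not fall. MAML2, a Notch coactivator, rose by 0.39.

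SLC2A3, a glucose importer common in tumour cells, measured 98.6, 98.7 and 101 CPM in the control libraries and 50.2, 45.1 and 44.5 CPM at 20 µM and fell by 1.09 log2 units (SE 0.05, adjusted p = 7.65e-19), with the groups well apart. Its relatives SLC2A6 and SLC2A4 rose by 1.09 and 0.54. TERT, the catalytic subunit of telomerase, fell from 13.4 ± 0.958 to 6.73 ± 0.114 CPM (log2 change -0.99, SE 0.11, adjusted p = 4.98e-09). Other steep falls were SH3TC2 (log2 change -0.95), CRYBG2 (-0.93), ZNF695 (-0.87), the ubiquinone enzyme COQ3 (-0.86), the replication-dependent histone H2AC4 (-0.85), DDIAS (-0.84) and MYCBP (-0.84).

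In CPM, the largest gains were in lipid and plasma protein genes. FASN, fatty acid synthase, measured 4223, 4305 and 4171 CPM in the control libraries and 6464, 6922 and 6594 CPM at 20 µM. No treated library reached down to the controls, and the log2 change was 0.65 (SE 0.03, adjusted p = 6.28e-18). SCD, the desaturase that makes monounsaturated fatty acids, went from 4075 ± 5.83 to 5603 ± 71.1 CPM (log2 change 0.46, SE 0.03). Plasma proteins among the 8 largest gains were FN1 (0.36), A2M (0.37), APOB (0.11), C3 (0.49) and SERPINA1 (0.28), and MT-CO1, a mitochondrially encoded oxidase subunit, rose by 0.13. The hepatocyte list did not move as 1: ALB, which encodes albumin, fell by 0.32 log2 units, and the cytokeratins KRT8 and KRT18 fell by 0.31 and 0.41.

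The largest losses in CPM were in cytoskeletal and chaperone genes. ACTB, cytoplasmic actin, measured 3391, 3333 and 3128 CPM in the control libraries and 2152, 2227 and 2145 CPM at 20 µM, with the treated libraries all lower (log2 change -0.59, SE 0.03, adjusted p = 6.64e-16). The tubulins TUBB and TUBA1B fell by 0.64 and 0.85, TUBA1B from 960.5 ± 26.7 to 532 ± 10.4 CPM. Of 15 tubulin genes tested, 5 fell, including TUBB4B (-0.54) and TUBA1C (-0.48), and 3 rose. CALR, a chaperone of the endoplasmic reticulum, fell by 0.62, and the heat-shock chaperones HSP90AA1, HSPA8 and HSPD1 by 0.57, 0.46 and 0.38. SPP1, secreted osteopontin, fell by 0.15. Actin, tubulin and heat-shock genes have many near-identical copies and pseudogenes, so their counts are uncertain to that degree.

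Genes that copy and separate chromosomes fell, each example below by less than 2-fold. Of 29 genes of the replicative helicase and polymerases, 28 fell and none rose (median -0.53), led by the primase partner POLA2 (-0.83) and the helicase activator CDC45 (-0.79). CDC45 measured 26.7, 26.4 and 27 CPM in the control libraries and 15.6, 15.7 and 15.2 CPM at 20 µM, with the treated libraries all lower. Of 21 condensin and cohesin genes, which shape and hold chromosomes, 19 fell, among them NCAPG2 (-0.68), NCAPH (-0.61) and PTTG1 (-0.61). Centromere proteins showed 16 falls of 21, with CENPF going from 291 ± 10.9 to 184 ± 9.42 CPM. Enzymes of nucleotide synthesis fell in 25 of 29, including the ribonucleotide reductase subunits RRM2 (-0.58) and RRM1 (-0.54) and thymidylate synthase TYMS (-0.52). In a bulk library, fewer dividing cells and less RNA per dividing cell cannot be told apart.

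Kinesins, the motors that walk on microtubules, fell in a larger share than protein-coding genes as a whole and rose in a similar one. Of 33 tested, 14 fell (42.4%) and 7 rose (21.2%), against 22.4% and 21.8% of protein-coding genes. Without control library 3, 4 rose. The mitotic motors KIF20A (-0.74), KIF2C (-0.71) and KIF14 (-0.68) fell, while KIF3C, a transport motor, rose from 24.2 ± 0.532 to 39.9 ± 0.965 CPM (log2 change 0.72, SE 0.06). Growth-arrest genes leaned the other way, with 10 of 20 higher and 1 lower. They included the cyclin-dependent kinase inhibitor CDKN2B (1.40), GADD45B (1.23) and CCNG2 (0.75). FOXM1, a driver of mitotic transcription, fell from 209 ± 12.2 to 144 ± 5.84 CPM (log2 change -0.54).

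The windows of 2 of these genes are printed because many mitotic promoters carry a cell cycle homology region (CHR), TTTGAA, the site through which the DREAM complex represses them in resting cells. Each was chosen as the steepest fall of its list with the CHR in its window. KIF20A and KIF2C fell more than KIF14 and had no CHR in theirs. They come from the minus strand of GRCh38.p14, KIF14 at chr1:200620702-200621001 and NCAPG2 at chr7:158704755-158705054, with the CHR in capitals on whichever strand it was read.
KIF14: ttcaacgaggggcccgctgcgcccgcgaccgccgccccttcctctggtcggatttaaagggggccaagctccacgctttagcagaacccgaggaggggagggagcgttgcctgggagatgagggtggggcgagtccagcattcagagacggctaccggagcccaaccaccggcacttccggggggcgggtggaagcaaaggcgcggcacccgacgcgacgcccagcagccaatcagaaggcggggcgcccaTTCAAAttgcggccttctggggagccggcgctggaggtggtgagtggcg
NCAPG2: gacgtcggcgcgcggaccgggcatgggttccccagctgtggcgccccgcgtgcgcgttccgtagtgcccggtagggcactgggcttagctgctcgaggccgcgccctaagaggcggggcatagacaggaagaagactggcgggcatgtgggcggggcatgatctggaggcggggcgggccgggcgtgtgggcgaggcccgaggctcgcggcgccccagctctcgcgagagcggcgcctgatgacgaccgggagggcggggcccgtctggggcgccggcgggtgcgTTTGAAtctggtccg
The 6 letters were present in 44.4% of 18 condensin and cohesin windows, 35.7% of 28 kinesin windows and 29.4% of 17 centromere windows, against 9.83% of all 10117. Not every list that fell followed: they were in 0 of 25 replicative helicase and polymerase windows and in 12% of 25 nucleotide synthesis windows. Small lists of other kinds reached 50% (1 of 2 keratin windows) and 33.3% (1 of 3 UDP-glucuronosyltransferase windows). Others reached 28.6% (2 of 7 laminin windows) and 27.3% (3 of 11 windows of glucose and monocarboxylate transporters). These shares describe the letters in the windows and were not tested. The end of the KIF14 window, unlike that of NCAPG2, was not found in a GENCODE 29 transcript of its gene, so the position of the KIF14 start is uncertain.

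Genes of ribosome assembly and translation mostly fell. Ribosome assembly factors, which cut, fold and export ribosomal RNA precursors, fell in 43 of 48 cases and rose in none (median -0.32). TCOF1, a nucleolar cofactor of ribosomal RNA transcription, measured 247, 244 and 244 CPM in the control libraries and 144, 152 and 152 CPM at 20 µM, the treated libraries all below the controls (log2 change -0.72, SE 0.04, adjusted p = 3.81e-16). UTP20, a component of the small-subunit processome, fell by 0.63, MRTO4 by 0.59 and TSR1 by 0.51. The windows of UTP20 (plus strand, chr12:101279855-101280154) and MRTO4 (plus strand, chr1:19251555-19251854), both GRCh38.p14, are shown with the E-box CACGTG, the site bound by MYC and its relatives, in capitals. Both were chosen as the steepest falls of this list with that E-box in the window.
UTP20: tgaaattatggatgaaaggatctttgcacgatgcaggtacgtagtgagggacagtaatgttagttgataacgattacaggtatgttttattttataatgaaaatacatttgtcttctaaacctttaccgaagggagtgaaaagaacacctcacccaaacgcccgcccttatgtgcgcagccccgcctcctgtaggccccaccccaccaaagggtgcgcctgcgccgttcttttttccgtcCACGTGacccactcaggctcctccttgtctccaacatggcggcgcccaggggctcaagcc
MRTO4: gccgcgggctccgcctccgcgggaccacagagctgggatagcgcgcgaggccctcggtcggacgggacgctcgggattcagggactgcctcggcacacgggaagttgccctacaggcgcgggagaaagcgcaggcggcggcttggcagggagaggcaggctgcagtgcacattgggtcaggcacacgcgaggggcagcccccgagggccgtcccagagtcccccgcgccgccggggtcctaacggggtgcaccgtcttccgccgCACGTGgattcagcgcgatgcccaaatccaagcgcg
That E-box was present in 39.0% of 41 ribosome assembly windows and 25.0% of 44 translation initiation factor windows, against 10.2% of all windows. Other lists that fell varied. The E-box was in 0 of 18 condensin and cohesin windows, 7.14% of 28 nucleoporin windows and 7.5% of 40 proteasome windows. It was in 8.82% of 68 mitochondrial ribosomal protein windows, but in 24.1% of 29 SR protein and hnRNP windows and 23.5% of 17 centromere windows. It was also present in 36.4% of 11 windows of V-ATPase genes and 28.6% of 14 windows of KLF and EGR factors, families that rose. No test was made of these shares.

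Further along the same pathway, 28 of 53 translation initiation factor genes fell and 5 rose. EIF2B3 (-0.54) and EIF2S1 (-0.44), parts of the machinery that loads the initiator tRNA, were among the falls. The translation repressor EIF4EBP2 was among the rises, going from 247 ± 9.28 to 342 ± 6.77 CPM (log2 change 0.47, SE 0.03). Aminoacyl-tRNA synthetases, which charge tRNAs, fell in 12 of 20, led by KARS1 (-0.35) and VARS1 (-0.35). DEAD and DEAH box helicases, which unwind RNA, fell in 32 of 48, with the nucleolar helicase DDX21 going from 415 ± 4.18 to 302 ± 13.7 CPM. Of 77 mitochondrial ribosomal protein genes, 52 fell, including MRPL16 (-0.55) and MRPL13 (-0.55). The translocases that import proteins into mitochondria fell in 14 of 23. No member of either mitochondrial family rose, although 1 ribosomal protein gene did without control library 1.

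Splicing and nuclear transport genes moved the same way. Of 31 SR protein and hnRNP genes, 22 fell, with HNRNPL at -0.44 and SRSF1 at -0.40. Nucleoporins, the building blocks of the nuclear pore, fell in 25 of 29, led by NUP107 going from 94.6 ± 1.91 to 60.5 ± 2.0 CPM (log2 change -0.65, SE 0.04). Importins and exportins fell in 18 of 25, among them CSE1L, which recycles importin alpha (-0.67), and KPNB1 (-0.46).

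Protein folding and breakdown genes did not share 1 direction. All 8 subunits of the CCT chaperonin, which folds actin and tubulin, fell (median -0.34). CCT2 measured 249.5, 263 and 260.0 CPM in the control libraries and 193, 189.8 and 203 CPM at 20 µM, and the groups did not overlap. Proteasome subunits fell in 32 of 46 and rose in none, for example PSMB3 (-0.41) and PSMD11 (-0.40). J-domain cochaperones were divided, 12 higher (7 without the 3 libraries that deviated together) and 10 lower of 37, with the endoplasmic reticulum cochaperone DNAJB9 at 0.69. Among ubiquitin-conjugating enzymes, 9 of 33 fell, including the mitotic enzyme UBE2C (-0.72), while UBE2H rose from 45 ± 2.46 to 82.1 ± 0.525 CPM (log2 change 0.87, SE 0.05).

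Ubiquitin ligase families rose in shares slightly above the protein-coding background. RNF ligases rose in 18 of 60 (30%), F-box proteins in 16 of 54 (29.6%) and TRIM proteins in 12 of 43 (27.9%), against 21.8%. RNF145, a sterol-responsive ligase of the endoplasmic reticulum, measured 38.1, 37.9 and 36 CPM in the control libraries and 84.4, 86.3 and 84.4 CPM at 20 µM, with every treated library above every control (log2 change 1.19, SE 0.05, adjusted p = 1.12e-19). TRIM50 rose by 0.82 and FBXO33 by 0.55. KLHL adaptors rose in 7 and fell in 4 of 24 (2 falls without control library 2). Ubiquitin-specific proteases showed 9 rises and 14 falls of 47.

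Several membrane traffic families had more rises than falls, beside 21.8% higher and 22.4% lower over all protein-coding genes. Of 52 genes listed with the Rab GTPases, switches that direct vesicles, 21 rose and 2 fell. That lower count was 1 without control library 1 or without 20 µM library 1 or 2. RAB40B went from 5.55 ± 1.2 to 13.9 ± 0.522 CPM (log2 change 1.33, SE 0.12, adjusted p = 1.08e-10). STX3, a membrane fusion protein of the apical surface, measured 24.5, 22.9 and 23.3 CPM in the control libraries and 48.9, 53.1 and 51.7 CPM at 20 µM, with no overlap and a log2 change of 1.12. Subunits of the V-ATPase, the proton pump of lysosomes, rose in 9 of 18 and fell in none, with ATP6V0A1 at 0.39 and ATP6V0D1 at 0.39. Sorting nexins rose in 7 of 26 (26.9%, near the protein-coding share), including SNX33 (0.58) and SNX30 (0.57). No sorting nexin fell, although 1 did without 20 µM library 3. VPS proteins of endosomal sorting rose in 11 and fell in 5 of 34, where the falls numbered 3 without control library 1 and 2 without control library 2 or 20 µM library 2. TBC1D proteins, which switch Rabs off, rose in 8 of 30 (4 without control library 1), with TBC1D17 at 0.55. That share, 26.7%, was also near the protein-coding one. Coat proteins of early secretion were small in change and evenly divided, 7 higher and 8 lower of 31. The higher count dropped to between 2 and 4 without any 1 control, without 20 µM library 3 or without 30 µM library 1, and the lower count was 5 without control library 2.

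Among transporters, those of amino acids stood out by count. Of 23 tested, 15 rose and 1 fell (median 0.19). SLC38A3, a glutamine transporter of hepatocytes, measured 124, 120.5 and 111 CPM in the control libraries and 199.7, 217 and 206 CPM at 20 µM, the treated libraries all higher (log2 change 0.81, SE 0.04, adjusted p = 1.08e-16). SLC43A2 rose by 0.89 and the lysosomal glutamine carrier SLC38A7 by 0.55. ABC transporters rose in 14 of 31 and fell in 7 (4 without control library 3), with ABCA5 going from 10.2 ± 0.489 to 20.8 ± 3.01 CPM and the porphyrin transporter ABCB6 lower by 0.56. Organic ion transporters rose in 10 of 23, among them the lysosomal sialic acid exporter SLC17A5 (0.46) and the carnitine importer SLC22A5 (0.33). Glucose and monocarboxylate transporters showed 5 rises and 6 falls of 16, but a single fall without control library 3 or 20 µM library 2. Mitochondrial carriers rose in 11 of 43 (25.6%) and P-type ATPases in 7 of 24 (29.2%), both slightly above the protein-coding share of 21.8%.

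Of the metabolic families, cytochromes P450 and acyl-CoA enzymes leaned upward. Cytochromes P450, which oxidize drugs, sterols and bile acids, rose in 16 of 27 and fell in none (median 0.44). CYP3A5 went from 7.39 ± 0.799 to 13.7 ± 1.13 CPM (log2 change 0.88, SE 0.09, adjusted p = 3.53e-09), CYP8B1, the sterol hydroxylase that directs bile acid synthesis to cholic acid, rose by 0.93 and CYP2D6, the main enzyme that clears eliglustat, by 0.94. The CYP3A and CYP2D genes have close copies, so their counts are uncertain. The hepatocyte marker sum given above was higher in every treated library, and its part in these results was not tested. Acyl-CoA synthetases and thioesterases, which activate or release fatty acids, rose in 12 of 19 and fell in none (1 fell without 20 µM library 2). ACSS2, which makes acetyl-CoA from acetate, measured 121, 120.2 and 124 CPM in the control libraries and 222, 225 and 222 CPM at 20 µM, with clear separation (log2 change 0.87, SE 0.03, adjusted p = 3.47e-19), and ACSL1 rose by 0.76. Aldehyde dehydrogenases were mixed, 4 higher and 6 lower of 16. Glutathione S-transferases rose in 5 of 15 (3 without control library 3, 2 without 20 µM library 3). None of 4 UDP-glucuronosyltransferases passed, and of 10 aldo-keto reductases 2 rose and 2 fell (1 without control library 2).

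**Figure D3:**
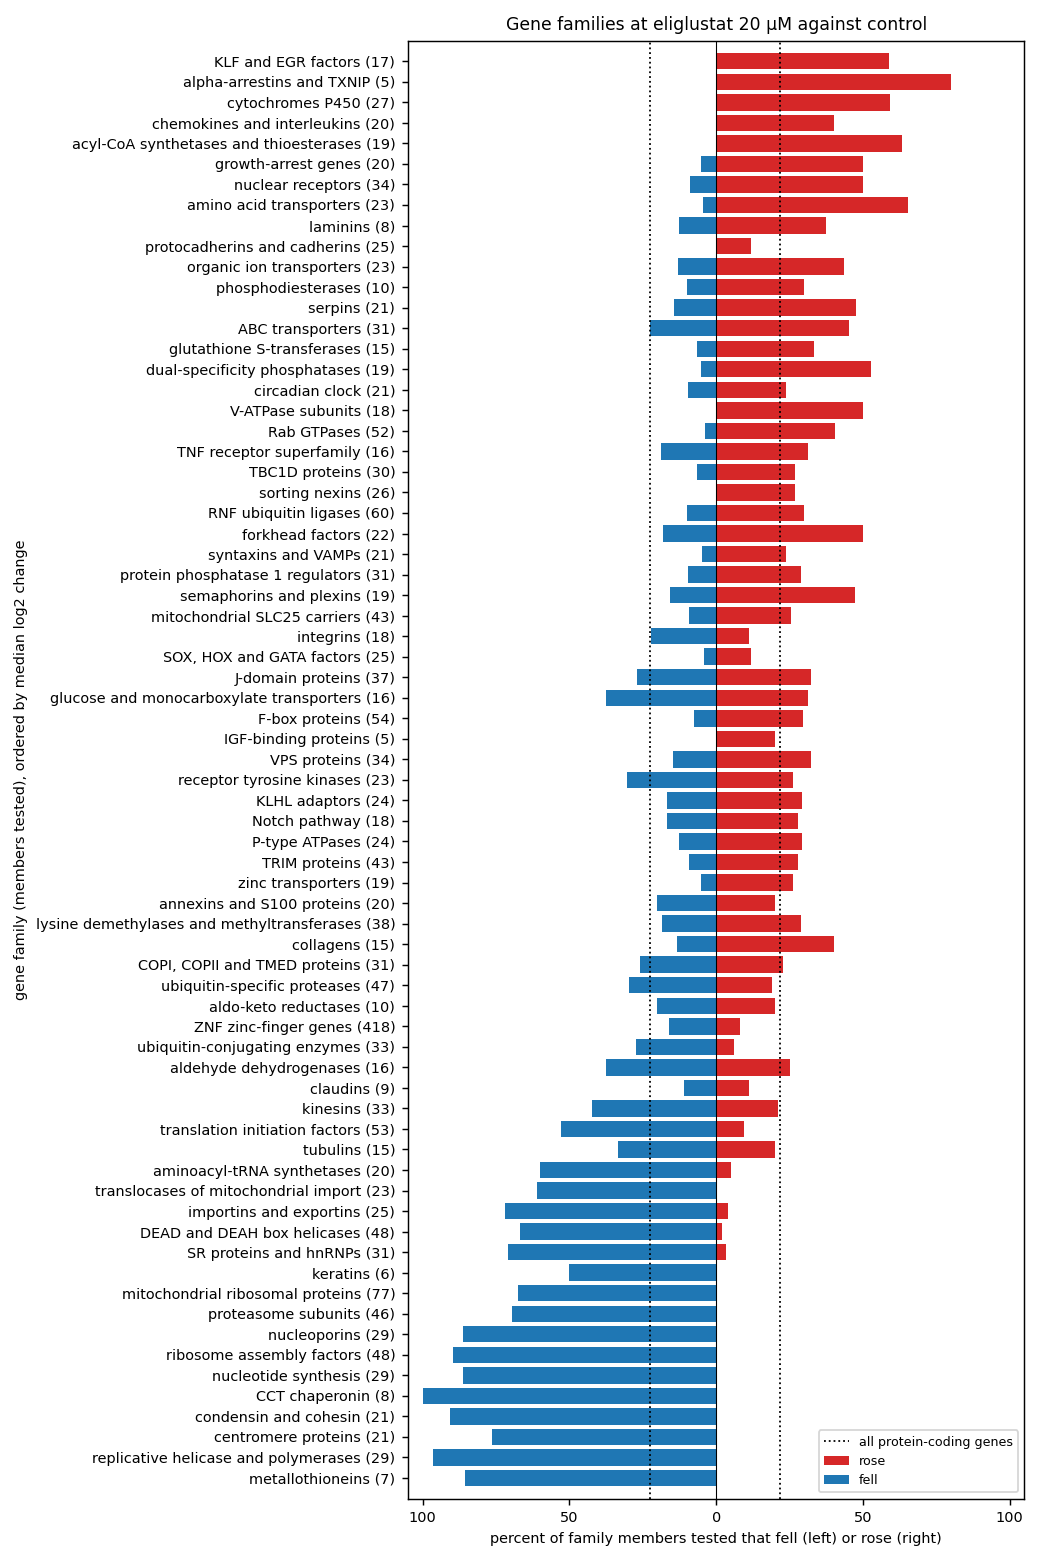
Bars give the percent of tested members of each gene family that rose (red, right) or fell (blue, left) at 20 µM, ordered by the family's median log2 change, with the number tested in parentheses. Dotted lines mark the shares over all protein-coding genes, 21.8% higher and 22.4% lower; metallothioneins and the families of replication, condensin and the CCT chaperonin lie at the bottom and KLF and EGR factors at the top, and UDP-glucuronosyltransferases and 1 other list are not drawn.

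Several transcription factor families had more rises than falls. KLF and EGR factors rose in 10 of 17 and fell in none (median 0.68). KLF6 measured 72.3, 80.6 and 75.1 CPM in the control libraries and 149, 142 and 139 CPM at 20 µM, with no overlap (log2 change 0.92, SE 0.04, adjusted p = 7.93e-19), and KLF11 and KLF10, which respond to transforming growth factor beta, rose by 1.63 and 0.83. Nuclear receptors rose in 17 of 34. NR0B2, the bile-acid-induced corepressor also called SHP, went from 44.1 ± 1.91 to 86.5 ± 5.58 CPM (log2 change 0.97, SE 0.06), and NR4A1, an immediate-early receptor, rose by 1.02. Forkhead factors rose in 11 of 22 and fell in 4, with the insulin-inhibited factors FOXO3 and FOXO4 at 0.50 and 0.42. The 418 ZNF zinc-finger genes tested were quieter than the background, with 34 higher and 67 lower. Of 38 lysine demethylases and methyltransferases, 11 rose, led by the demethylases KDM3A (0.52) and KDM6B (0.51). Clock genes rose in 5 of 21 (23.8%, near the 21.8% of protein-coding genes), and SOX, HOX and GATA factors in 3 of 25 (12%).

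Signalling families included feedback genes. Dual-specificity phosphatases, which switch off MAP kinases, rose in 10 of 19. DUSP1 measured 11.2, 9.92 and 10.5 CPM in the control libraries and 22.8, 23.5 and 24 CPM at 20 µM, with the treated libraries all above the controls (log2 change 1.15, SE 0.06, adjusted p = 1.16e-15), and DUSP8 rose by 1.20. Of 5 alpha-arrestins, 4 rose, with TXNIP, which restrains glucose uptake, going from 4.28 ± 1.23 to 9.41 ± 0.613 CPM (log2 change 1.12, SE 0.14). PPP1R15A, the stress-induced phosphatase subunit that reverses eIF2 phosphorylation, rose by 0.81. Receptor tyrosine kinases were divided, 6 higher (26.1%) and 7 lower (30.4%) of 23, beside 21.8% and 22.4% of protein-coding genes. ERBB3 rose from 402 ± 10.7 to 548 ± 6.35 CPM while FGFR2, TYRO3 and AXL fell by 0.48, 0.48 and 0.56. In the TNF receptor superfamily TNFRSF12A rose by 0.73 and TNFRSF11A fell by 0.75.

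Of the secreted and surface families, serpins, semaphorins and plexins, collagens, and chemokines and interleukins rose in larger shares (40 to 47.6%) than protein-coding genes as a whole (21.8%). Chemokines and interleukins rose in 8 of 20. None fell with all libraries, although 1 did without 20 µM library 2. CCL20, an attractant of lymphocytes and dendritic cells, measured 4.34, 5.32 and 5.79 CPM in the control libraries and 10.6, 11.4 and 14.3 CPM at 20 µM (log2 change 1.23, SE 0.12, adjusted p = 2.11e-07), with no treated library as low as a control. IL17B and CXCL8 rose from under 1 CPM by 2.69 and 1.56. Serpins rose in 10 of 21, including SERPINA6, the cortisol carrier of plasma, which went from 204 ± 6.77 to 284 ± 13.9 CPM (log2 change 0.48, SE 0.04), while the collagen chaperone SERPINH1 fell by 0.53. Semaphorins and plexins rose in 9 of 19, and 3 fell (1 without 20 µM library 1 or 2). Collagens rose in 6 of 15 (3 without control library 1), with COL6A1 at 0.66. Integrins, claudins, cadherins, annexins and S100 proteins had at most 4 members past the test in either direction. With single libraries left out, counts moved by over 1.5 times for integrins in both directions, for lower claudins and for higher annexins and S100 proteins.

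Among long non-coding genes at 5 CPM or more the steepest rise was in NEAT1. NEAT1 (ENSG00000245532, chr11:65422774-65445540, plus strand), the RNA scaffold of nuclear paraspeckles, measured 224, 222 and 225 CPM in the control libraries and 592, 529 and 506 CPM at 20 µM. Every treated library was far above the highest control (log2 change 1.28, SE 0.05, adjusted p = 5.14e-14). LINC00494 and PDCD4-AS1 rose by 1.09 and 0.75. The steepest falls were in LINC02413 (-1.02) and a run of small nucleolar RNA host genes, whose introns carry guides for ribosomal RNA modification: SNHG4 (-0.81), SNHG3 (-0.68), SNHG26 (-0.65) and SNHG17 (-0.57). SNHG3 went from 197 ± 3.36 to 123 ± 2.55 CPM, with no overlap.

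Genes changed at 20 µM alone were defined by 3 conditions: past the test at 20 µM, not past it at 30 µM against control, and different between the doses in the opposite direction. They numbered 877 (4.98% of genes tested and 14.6% of those changed at 20 µM), 438 higher and 439 lower. Their median absolute log2 change was 0.29 at 20 µM and 0.061 at 30 µM, and 41 moved by at least 2-fold. The contrasts share control libraries and 20 µM libraries, so these counts describe the data and are not independent tests. A further 278 genes changed at 20 µM, missed the threshold at 30 µM and did not differ between doses by the test, and they were not counted. Both doses passed with opposite signs in 394 genes that were higher then lower and in 363 that were lower then higher.

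The count and its members depended on scaling. Scaling by library size alone gave 652 such genes, 446 higher and 206 lower, and kept 192 of the 877. Upper-quartile scaling gave 827, 512 higher and 315 lower, and kept 600. With library size alone the median log2 change of all genes at 30 µM against control was -0.25 in place of -0.036, while the median at 20 µM stayed at -0.0077 against 0.0087. The genes held under all 3 scalings other than the main one numbered 158, of which 141 were higher at 20 µM and 17 lower. In all 21 alternative settings together, 50 were kept, 45 higher and 5 lower.

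SESN3 (ENSG00000149212, chr11:95165513-95232541, minus strand), a stress protein that restrains mTORC1, was the steepest of the higher protein-coding genes at 5 CPM or more. It measured 10.5, 10.8 and 10.6 CPM in the control libraries and 22.3, 25.3 and 22.1 CPM at 20 µM, and 9.95, 10.4 and 8.3 CPM at 30 µM. The 20 µM libraries stood alone, with controls and 30 µM side by side. The conditions that define the class select for this pattern, in this gene and in those named below. The log2 change was 1.12 at 20 µM (SE 0.09, adjusted p = 4.72e-12) and -0.16 at 30 µM (adjusted p = 0.16), and the gene left the class with upper-quartile scaling or library size alone. NUPR1, a stress-induced chromatin protein, averaged 4.82, 10.3 and 4.39 CPM in the order control, 20 µM and 30 µM. VPS37D, a subunit of the ESCRT-I sorting complex, averaged 8.88, 15.7 and 8.07. Both left the class with library size alone.

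The 4 named genes that rose and were kept in all 21 settings were SULT1C2, PTGDR2, RALGPS1 and EVI5L. SULT1C2 (ENSG00000198203, chr2:108288639-108309915, plus strand), a cytosolic sulfotransferase, measured 12.9, 11.3 and 12.4 CPM in the control libraries and 21.9, 23.3 and 20.7 CPM at 20 µM, and 13.4, 12.7 and 12.6 CPM at 30 µM. Again only the 20 µM libraries were high (log2 change 0.85, SE 0.08, adjusted p = 3.39e-10; at 30 µM 0.08, adjusted p = 0.44). PTGDR2, a prostaglandin D2 receptor, averaged 4.3, 8.67 and 4.01 CPM across control, 20 µM and 30 µM. EVI5L, a Rab GTPase-activating protein, averaged 4.11, 7.58 and 3.86, and RALGPS1, an exchange factor for Ral, 3.86, 7.16 and 4.1. Genes of liver and nutrient metabolism among the 50, chosen here after their values were seen, include NR1I2, the xenobiotic receptor PXR (log2 change 0.33 at 20 µM), CREB3L3, a liver factor of fasting metabolism (0.56), the glycerol channel AQP7 (1.19), the fatty acid-activating enzyme ACSM5 (1.04), complement factor CFB (0.49) and DEPTOR, an mTOR inhibitor (1.03). The 5 lower ones were TFB2M, a mitochondrial transcription factor (-0.51), TSPAN4 (-0.45), MREG (-0.38), GTF2A2 (-0.33) and TRMT61A (-0.31).

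Of the 8 steepest falls in this class, HEY1 had the lowest log2 change, at 8.36, 3.42 and 7.84 CPM across control, 20 µM and 30 µM. ODC1, ornithine decarboxylase, the first enzyme of polyamine synthesis, measured 318, 323 and 327 CPM in the control libraries and 222, 225 and 226 CPM at 20 µM, and 308, 322 and 322 CPM at 30 µM. Its 20 µM libraries were low and the others overlapped (log2 change -0.52, SE 0.03, adjusted p = 1.69e-14; at 30 µM -0.02, adjusted p = 0.55). AJUBA, a scaffold of cell junctions, fell by 0.54 at 20 µM, and PAK1IP1, a ribosome assembly protein, by 0.53. HEY1 and PAK1IP1 left the class with library size alone, and ODC1 and AJUBA also with upper-quartile scaling. SRARP, PINX1, ATAD3B and RPL17 fell by 0.71, 0.55, 0.52 and 0.68. ATAD3B left the class without control library 1 or any single 20 µM library, PINX1 without 20 µM library 1 or 3 or 30 µM library 1, and SRARP without control library 2 or 30 µM library 2. RPL17 overlaps another gene, so its value is uncertain.

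**Figure D4:**
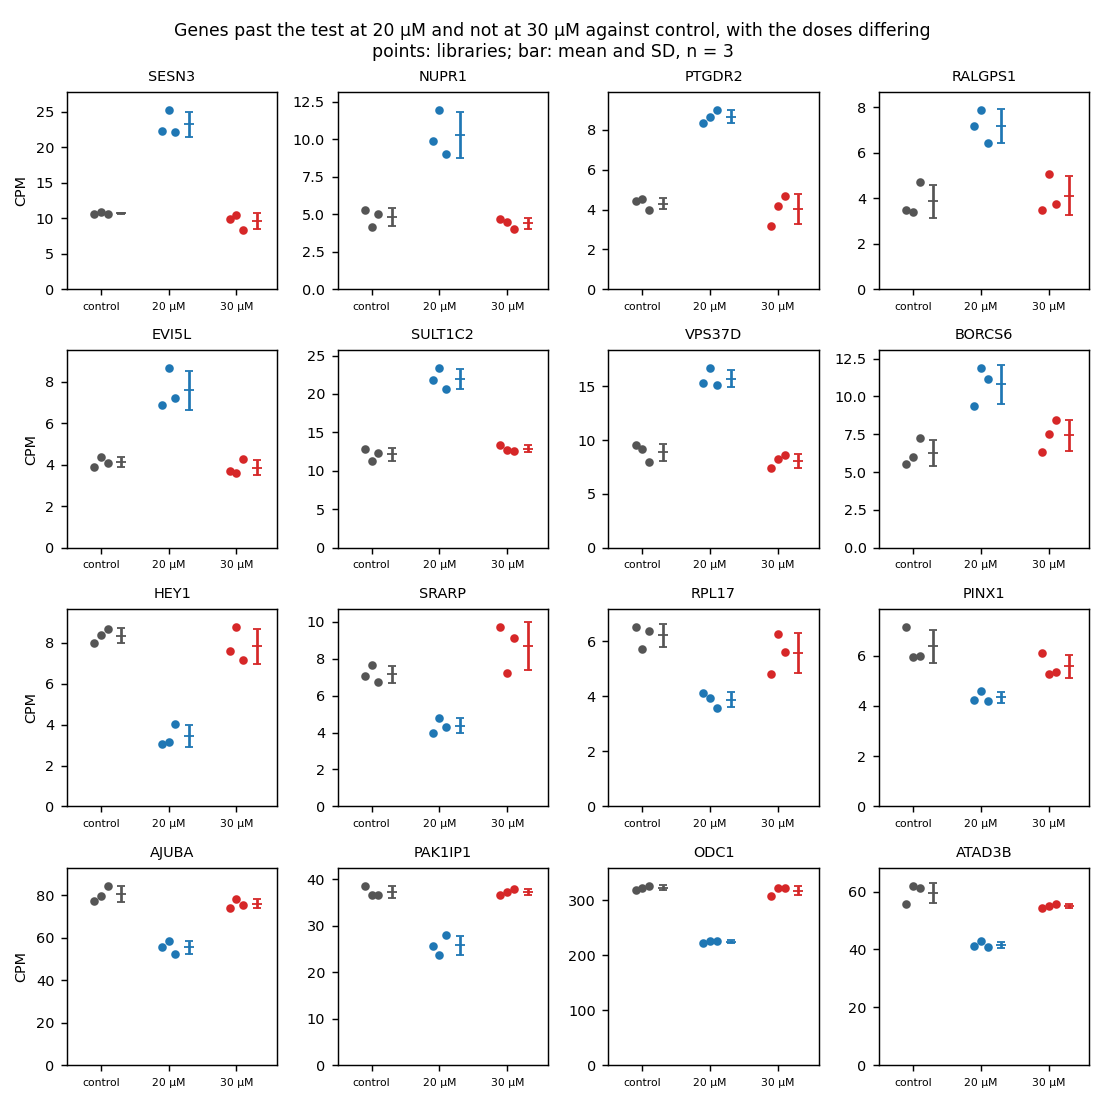
CPM of the 16 named genes changed at 20 µM alone, each panel with its own axis from 0, points for the 3 libraries of control, 20 µM and 30 µM and a bar for mean and SD. The 20 µM points lie above both other groups in the first 8 genes (SESN3 to BORCS6) and under them in the last 8 (HEY1 to ATAD3B), as in ODC1 at 323, 224 and 317 CPM. The conditions for the choice select for this pattern.

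By family, the class held large shares of some protein synthesis and folding lists. Ribosome assembly factors gave 20 of 48 (41.7%, against 4.98% of all genes), every one lower at 20 µM. That count was 17 with median-ratio, 18 with upper-quartile and 10 with library-size scaling. Translation initiation factors gave 13 of 53 and proteasome subunits 12 of 46, but 1 and 3 with library size alone. CCT subunits gave 4 of 8, but 6 with median-ratio, 2 with upper-quartile and none with library-size scaling. As summed levels under the main scaling, ribosome assembly factors stood at 76.9 to 80.4% of the control mean in the 20 µM libraries and at 90.1 to 92.2% at 30 µM, and proteasome subunits at 83.9 to 86.9% and 100.3 to 101%. With library size alone the proteasome median was -0.24 at 20 µM and -0.28 at 30 µM against control, so the order of the doses turned, while the ribosome assembly median was -0.34 and -0.26. Replicative helicase and polymerase genes were lower still at 30 µM, at 70.3 to 71.9% and 39.1 to 39.8%.

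**Figure D5:**
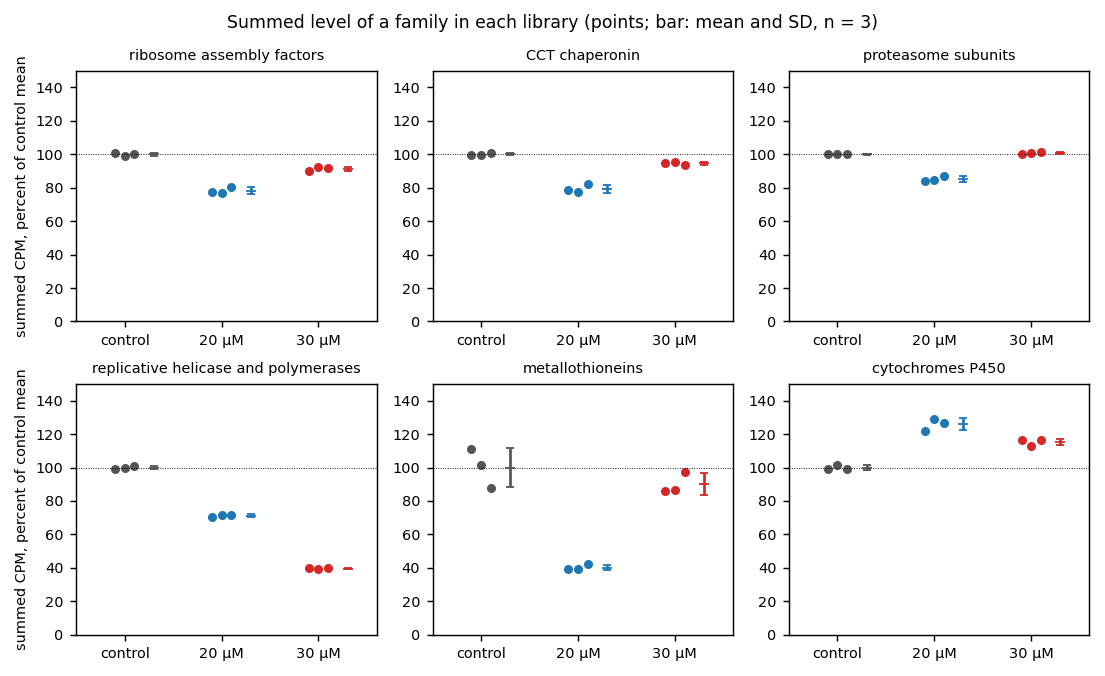
Summed CPM of 6 gene families in each of the 9 libraries, as percent of the control mean, with mean and SD beside the points. Under the main scaling, ribosome assembly, CCT and proteasome genes are lowest at 20 µM (with library size alone the proteasome median is lower at 30 µM), replicative genes are lower still at 30 µM, the metallothionein sum is lowest at 20 µM, and cytochromes P450 are highest at 20 µM.

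Several named genes share exons with a gene on the opposite strand, and whether reads were counted by strand is unknown here. Their counts may include the partner. They include DEPP1, TCP11L2, BHLHE40, YPEL3, GABARAPL1, JUNB, TUBA1B, TUBB, DDIAS, MYCBP, A2M, APOB, CALR, HSP90AA1, HSPD1, SESN3, PTGDR2, RALGPS1, BORCS6, SRARP, RPL17, PAK1IP1, LINC02413 and SNHG4. Genes named only as members of a family are not listed here and may carry the same limit.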

How the data were processed

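RNA from HepG2 cells was sequenced in 9 libraries, 3 untreated, 3 at 20 µM and 3 at 30 µM. The deposited values are raw counts of reads per gene, which the authors made from hg38 alignments; the submitters' processing notes list STAR (2.7.10a), HTSeq and FastQC. Neither the gene annotation nor the strand option used in counting is given in the sources used here. The labels name polyA RNA as the molecule, while the protocol removes ribosomal RNA from total RNA. Each file ends with 5 HTSeq totals that name no gene and stayed out of library sizes and tests; 40.6 to 44.0% of what HTSeq tallied in the 6 libraries compared fell in no single gene.

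Low genes were removed with filterByExpr, libraries were scaled by TMM, and edgeR 4.0.16 fitted group means to the 9 libraries by robust quasi-likelihood (common biological coefficient of variation 0.0529) in R 4.3.3, with Benjamini-Hochberg adjustment at 0.05. The SE is the log2 change divided by the square root of F. Of 62703 identifiers, 58264 were in GENCODE 29. Promoter windows came from RefSeq (GRCh38.p14) for 10117 of 12460 protein-coding genes tested, matched by symbol. The 72 gene families, the members and the rules were chosen with earlier results of these data known. Membership followed symbol patterns or lists of names. Named genes were protein-coding, past the test, at 5 CPM or more and without overlap between groups: the 15 highest and 15 lowest changes, the 8 largest gains and 8 largest losses in CPM, the 8 highest and 8 lowest changed at 20 µM alone, 5 long non-coding genes each way under the same filters, UGCG, the cell markers, and up to 4 members per family at 1 CPM or more. Some items are not reported here. Replicate numbers did not pair the libraries. On counts simulated over 17623 genes, 200 genes were changed in each of 5 draws. There the test recovered 30.8, 52.8, 76 and 92.4% of genes changed by 0.25, 0.5, 1 and 2 log2 units, with 8.54% false among its calls. Far more genes (6020) were called in the data, so these rates may not carry over to them. Alternatives were 21: other scalings (median-ratio, upper-quartile, library size alone), non-robust dispersions, no low-count filter, a mean of at least 50 counts, nuclear protein-coding genes only, each pair of groups alone, a replicate block, each library left out, the 3 libraries that deviated together left out, DESeq2 1.42.0 and limma voom 3.58.1.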

Additional observations from a re-analysis of the deposited data

How the results depend on the processing

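Over the 21 alternatives the number of genes changed at 20 µM ran from 5273 to 6135 (6020 as reported), with 46.4 to 53.9% of them higher. DESeq2 called 5487 and limma voom 5924. Leaving out single libraries gave 5273 to 6135 changed genes, 2616 to 3101 higher and 2603 to 3034 lower, and 732 to 882 changed at 20 µM alone, 360 to 439 of them higher and 372 to 461 lower. Without the 3 libraries that deviated together, 5416 genes changed and 891 did so at 20 µM alone. With the replicate number as a block, 5952 genes changed (5878 of the reported calls kept) and 870 did so at 20 µM alone; same-numbered libraries deviated with correlations of -0.20 to 0.35, so the numbers were not taken to pair them. Of genes changed at 20 µM alone and lower, library size alone gave 206 in place of 439; the median of all genes at 30 µM moved under that scaling, and the cause was not tested. None of the 332 named genes reversed, and 31 lost a call in at least 1 setting, none of them given a direction in the report. Of the family counts recomputed, 115 moved by over 1.5 times and 2909 did not. Depth limits what can be said of genes under 1 CPM.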

Other observations

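SNORD3A, a small nucleolar RNA of ribosomal RNA processing, did not pass the test, but 1 library stood apart. It measured 309 CPM in 20 µM library 2 against 26.3 and 31.9 CPM in the other 20 µM libraries, 17.3 to 28.96 CPM in controls and 25.4 to 34.2 CPM at 30 µM. The gene was chosen after its values were seen.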
